A study of Hylyphantes graminicola with 5 samples.

Results

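The mitochondrial genome genes of the spider *Hylyphantes graminicola* were followed in single cells of the adult brain. They are the 37 features whose name in the gene list starts with MT-, of 19195 features in all, and this name alone chose them. They comprise 15 features of 13 protein coding genes, since nad5 and nad6 are each listed in 2 pieces, with 2 ribosomal RNAs and 20 transfer RNAs. Names are given here without the prefix, and the pieces are called nad5-0, nad5-1, nad6-0 and nad6-1 as in the files. Brains of adults of mixed age were dissected and dissociated, 35 to 40 for each library, to give 3 female and 2 male libraries, called here F1, F2 and F3 and M1 and M2 by sex and replicate number, with no treatment named. Each library is thus a pool of animals, and the spread between libraries is the spread between pools. Each captured molecule carries a unique molecular identifier (UMI), so UMIs count molecules.

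Mitochondria keep a small circular genome of their own. In animals it encodes core membrane subunits of the respiratory chain: the proton-pumping membrane arm of complex I, the cytochrome b of complex III, the core of complex IV and part of the membrane sector of the ATP synthase, complex V. It also encodes the 2 RNAs of the mitochondrial ribosome and the transfer RNAs that it uses. All other subunits, complex II included, are encoded in the nucleus and imported. Mitochondrial genomes are read into long transcripts that are cut apart, in large part at the transfer RNAs, and many of the pieces receive a poly(A) tail, which is what a 3′ droplet method captures. Brain tissue spends much of its energy on ion pumping and synaptic transmission, and neurons are known for their dependence on oxidative phosphorylation. In single cells the share of mitochondrial molecules is also used as a sign of cell quality, because a leaking cell loses cytoplasmic RNA more easily than RNA held in mitochondria.

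Cells were kept with 500 to 60000 UMIs and at least 200 genes and with no limit on the mitochondrial share, which left 37978 of 40233 barcodes. A library kept between 3595 and 11308 cells and between 11890699 and 35605489 UMIs. Of all barcodes, 156 occurred in more than 1 library, and leaving them out changed no direction and no call of a comparison below. Cell classes were carried to all cells from 1998 cells of F3 whose cluster is known, by nuclear genes alone, so the mitochondrial genes played no part in it. Of these cells 99.3% regained their class when held out. The copy of the study's cell annotation used here was shortened and held cells of F3 alone, so the accuracy in F1, F2, M1 and M2 was not measured. The study kept cells with at most 40% mitochondrial RNA, so the annotated cells do not cover higher shares. The accuracy in cells above 40% was therefore not measured either.

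Mitochondrial genes gave 17.9%, 33.4% and 15.2% of all UMIs in F1, F2 and F3, against 20.5% and 29.2% in M1 and M2. F2 and M2 were thus high and the other libraries low, and the sexes overlapped. Over all libraries 30032111 UMIs were mitochondrial. Within a library, single cells ranged widely, with a lowest decile between 7.22% and 19.02% and a highest decile between 32.1% and 56.4%.

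One RNA held most of this pool. rrnL, the large ribosomal RNA, gave 64.0%, 57.9% and 49.4% of mitochondrial UMIs in F1, F2 and F3 and 56.9% in each of the male libraries. rrnS, the small ribosomal RNA, gave 4.27 ± 0.71% (SD, n = 5 libraries), so that rrnL had between 10.9 and 15.97 UMIs for each UMI of rrnS. Ribosomal RNA as a whole took 61.3 ± 5.58% of the pool. Gene lengths were not used here, so these are shares of captured molecules and not levels per length.

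Complex IV, cytochrome c oxidase, was the largest of the protein coding groups, with 19.1 ± 3.31% of mitochondrial UMIs (SD, n = 5 libraries). Its catalytic subunit cox1 gave 6.69%, 6.75% and 11.3% in F1, F2 and F3, against 9.18% and 9.62% in M1 and M2. cox3 and cox2, the other core subunits, averaged 5.90 ± 1.21% and 4.48 ± 0.29%. cox2 was the steadiest feature, its highest library being 1.16 times its lowest. Complex V followed with 7.93 ± 1.65%, nearly all of it from atp6, the channel subunit, with 5.96%, 6.96% and 10.4% in F1, F2 and F3 and 8.10% and 8.22% in M1 and M2. cob, the cytochrome b of complex III, gave 3.04 ± 0.48%.

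Complex I, the NADH dehydrogenase, was spread over 9 features that together gave 8.66 ± 1.38% of the pool (SD, n = 5 libraries). nad2 led with 2.12 ± 0.55%, followed by nad3, nad4 and nad1 with means of 1.60%, 1.42% and 1.33%, and by nad5-0, nad4l and nad6-0 with means from 0.576% to 0.942%. Some of these genes were marked by single libraries. nad3 gave 2.94% in F2 and between 1.03% and 1.73% in the other libraries. nad1 gave 0.677% in M1 and between 1.31% and 1.59% elsewhere. nad4 stayed between 1.21% and 1.57% in all libraries, whereas nad4l ranged from 0.375% in F1 to 1.00% in F2.

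The pieces of split genes were far from equal. nad5-0 had between 19.3 and 52.4 UMIs for each UMI of nad5-1, and nad6-0 between 12.9 and 49.1 for each of nad6-1. The reads behind each piece were not used here, so whether the small piece is a part of the same messenger was not tested. atp8, the second mitochondrial subunit of complex V, gave only 0.00823 ± 0.0020% of the pool, 2481 UMIs in all, and atp6 had between 624 and 1685 UMIs for each of them. Of the 20 transfer RNAs, 16 had 0 UMIs, which allows up to 3 UMIs each over the 5 libraries. trnS1, trnA, trnL1 and trnV had 5, 3, 1 and 1 UMIs, so that all transfer RNAs together gave 10 UMIs. The 17 features with at least 100 UMIs are described from here on.

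**Figure D1:**
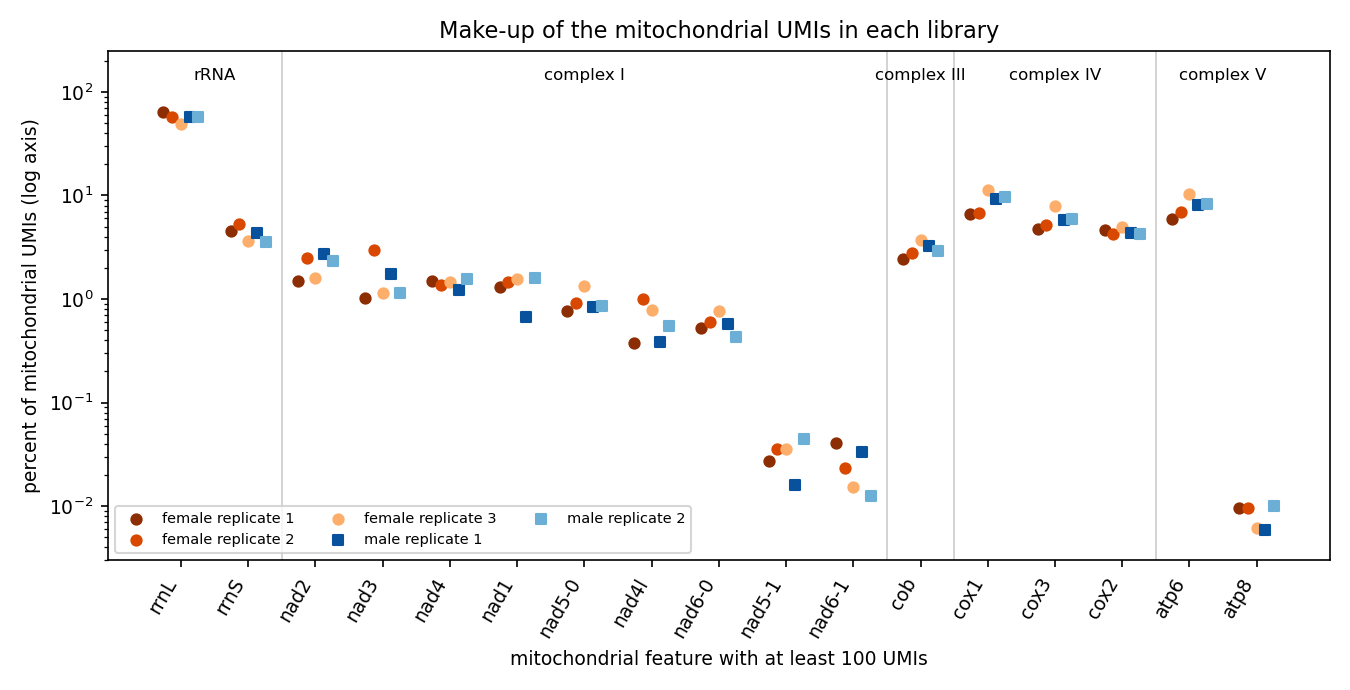
Share of mitochondrial UMIs (percent, log axis) of the 17 mitochondrial features with at least 100 UMIs, in groups by complex, with female libraries as circles and male libraries as squares. rrnL lies between 49.4% and 64.0%, the pieces nad5-1 and nad6-1 and the gene atp8 lie under 0.05%, and nad3 in F2 and nad1 in M1 stand off from the other libraries.

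No difference between females and males was found for these genes. The mitochondrial share averaged 22.2 ± 9.85% in females (SD, n = 3 libraries) and 24.9 ± 6.21% in males (n = 2 libraries), a difference of -2.70 points (two-sided exact permutation test over libraries, p = 0.80, where 3 libraries against 2 cannot go below 0.20). The difference turned to 0.791 points without F3 and to 1.70 points without M2. In edgeR's quasi-likelihood test on UMIs summed per library, 0 of the 17 features were called at an adjusted p under 0.05, against 0.0354% of the 14117 genes tested, and 0 had an unadjusted p under 0.05. DESeq2 called 0 as well. Fitted log2 fold changes of female over male ran from -0.39 for cox1 (SE 0.51) to 0.70 for nad4l (SE 0.77). The sexes overlapped in all 17 features, and did not overlap for 9.02% of all genes tested.

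Glia had a larger mitochondrial share than neurons in every library. The 1551 glia, the support cells of the brain, had a mitochondrial share of 32.1%, 40.4% and 20.5% in F1, F2 and F3 and of 34.5% and 46.8% in M1 and M2. The 34412 neurons had 17.5%, 33.8% and 15.4% in the same female libraries and 20.1% and 28.6% in the male ones. Glia lay above neurons of their own library in 5 of 5 libraries, by 5.09 to 18.2 points and 11.8 ± 5.66 points on average (SD, n = 5 libraries; two-sided exact permutation test by flipping signs, p = 0.0625, the smallest that 5 libraries can give). The difference was 14.6, 6.56 and 5.09 points in F1, F2 and F3 and 14.4 and 18.2 points in M1 and M2, so the sexes overlapped. Pooled over libraries, 49.1% of the glia had a share of 40% or more, against 16.8% of the neurons. By library this part ran from 14.1% in F3 to 69.2% in M2 for glia. For neurons it ran from 5.16% in F3 to 31.4% in F2.

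The count of mitochondrial molecules per cell was close between these classes. The median glial cell held 463, 724.5 and 400 mitochondrial UMIs in F1, F2 and F3 and 597.5 and 755 in M1 and M2, against 451, 658, 469, 596 and 699 in the median neuron of the same libraries. The ratio of glia to neurons was 0.853 to 1.10. For nuclear genes that ratio was 0.421 to 0.816, with medians of 754 to 1181 nuclear UMIs in glia and 1202 to 2514 in neurons. Glia were thus lower in nuclear UMIs in 5 of 5 libraries and lower in mitochondrial UMIs in 1 of 5. Fewer molecules in the cell and fewer molecules captured from it cannot be told apart.

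Within cells of like depth the order was the same under 5000 UMIs and not above. Among cells with 1000 to under 2000 UMIs the glial share averaged 40.4%, which was 12.3 points above neurons and above them in 5 of 5 libraries, and among cells with 2000 to under 5000 UMIs it was 34.7%, 9.84 points above and again in 5 of 5. In deeper cells, with 5000 to under 10000 UMIs, glia averaged 24.5% and lay above neurons in 2 of the 4 libraries with at least 5 such glia. Cells counted as glia held glia markers when the mitochondrial share was high. The markers were not kept out of the class transfer, so their presence is no test of the class. The 5 glia markers *Gat*, *Eaat2*, *moody*, *SPARC* and *Tsf1*, summed, stood at 2196 to 15338 counts scaled to a total of 1000000 nuclear UMIs (CPM of nuclear UMIs) in the 761 glia at or above 40%, where 4 of the 5 had at least 3 UMIs, and at 2145 to 15083 CPM in the 790 glia under 40%, where all 5 had. In neurons at or above 40% the sum was 68.8 to 311 CPM and in neurons under 40% it was 20.9 to 53.8 CPM. Pooled over libraries, *Gat* and *Eaat2* stood at 2516 and 2565 CPM in glia at or above 40% and at 2155 and 2199 CPM under 40%. The other markers, *moody*, *SPARC* and *Tsf1*, were lower at or above 40%, with 464, 117 and 1.77 CPM against 606, 182 and 11.4 CPM. Neuronal markers were present in glia too. *brp*, *nSyb*, *elav* and *Syt1* summed to 684 to 10854 CPM in glia at or above 40% and to 1813 to 7756 CPM in glia under 40%, against 11626 to 21182 and 9822 to 17059 CPM in the neurons. The part of neuronal RNA in the glial values was not tested.

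**Figure D2:**
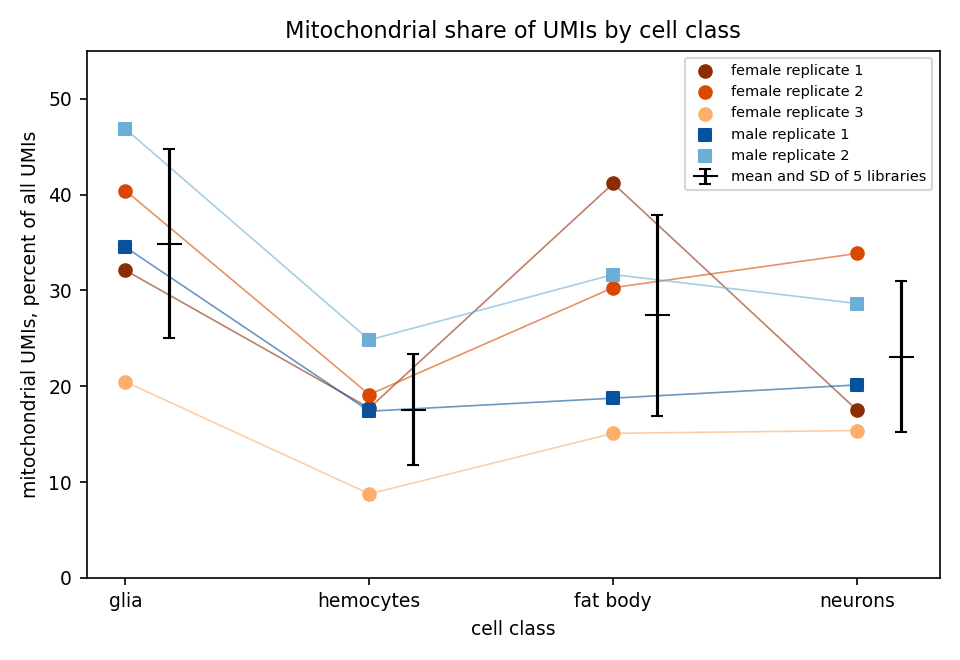
Mitochondrial UMIs as a percent of all UMIs in each cell class, with 1 point for each library, lines joining the classes of a library, and black bars for mean and SD over the 5 libraries. Glia lie above neurons in all 5 libraries, hemocytes below them in 4 of 5, and the fat body value of F1, 41.2%, rests on 6 cells.

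Every one of the 17 features was called higher in glia than in neurons by edgeR on UMIs summed per library and class, with library as a block, where 25.1% of the 10904 genes tested were called and 14.4% were called higher. Their median log2 fold change was 1.11, against -0.18 over all genes tested. In CPM of all UMIs 14 of the 17 were higher in glia in 5 of 5 libraries, and 8.79% of all genes were. rrnL had 213297, 246028 and 110344 CPM of all UMIs in glia of F1, F2 and F3 and 202872 and 269990 CPM in glia of M1 and M2. In neurons it had 111670, 195832, 76227, 114340 and 162748 CPM in the same order, so that glia were higher in each library and the classes overlapped between libraries. Its log2 fold change was 1.29 (SE 0.34, edgeR adjusted p = 0.0093).

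The catalytic subunit cox1 had 20535, 26061 and 19965 CPM in glia of F1, F2 and F3 and 28138 and 42817 CPM in glia of M1 and M2, against 11705, 22854, 17351, 18556 and 27627 CPM in neurons. Its log2 fold change was 1.10 (SE 0.28, edgeR adjusted p = 0.0072). Of the other features with many UMIs, cox2 rose by 1.41 (SE 0.27, edgeR adjusted p = 0.00073), atp6 by 1.18 (SE 0.28, adjusted p = 0.0046) and cox3 by 1.09 (SE 0.27, adjusted p = 0.0059) on the log2 scale. rrnS rose least among these 6, by 0.79 (SE 0.27, edgeR adjusted p = 0.043). Its call was lost without TMM, at 0.18 (adjusted p = 0.52), and in cells under 40%, at 0.20 (adjusted p = 0.65). In CPM of all UMIs rrnS had 10261, 13526 and 4665 in glia of F1, F2 and F3 and 14921 and 13792 in glia of M1 and M2, against 8007, 18052, 5605, 8706 and 10348 in neurons, so that glia were higher in 3 of 5 libraries and lower in F2 and F3. The largest change of all was that of atp8, 1.81 (SE 0.26), which was picked out after its value was seen and rests on 161 UMIs in glia.

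The scaling set the size of these changes but not their direction. Without TMM, edgeR's scaling that leaves the most changed genes out, the median of all genes moved by -0.60 on the log2 scale. All 17 features stayed above 0 then, from 0.18 to 1.22, and 8 of them were called, while 9.26% of all genes were called higher. In cells under 40% alone, 5 of 17 were called, beside 12.5% of all genes called higher, and all 17 stayed above 0, at a median of 0.59. Without the library block 3 of 17 were called, beside 12.5% of all genes, a share near the background. Without M1 11 were called, beside 13.6%.

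Within the glial pool the mix of genes differed slightly from that of neurons. rrnL took 59.5% of mitochondrial UMIs in glia and 57.0% in neurons, cox2 5.07% and 4.45%, and cob 3.24% and 3.02%, each higher in glia in 5 of 5 libraries. Lower in 5 of 5 were rrnS, with 3.22% in glia and 4.30% in neurons, cox1, cox3, nad3, nad4, nad5-0 and nad6-0. The shares are parts of 1 sum, so that a rise of rrnL lowers the rest.

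**Figure D3:**
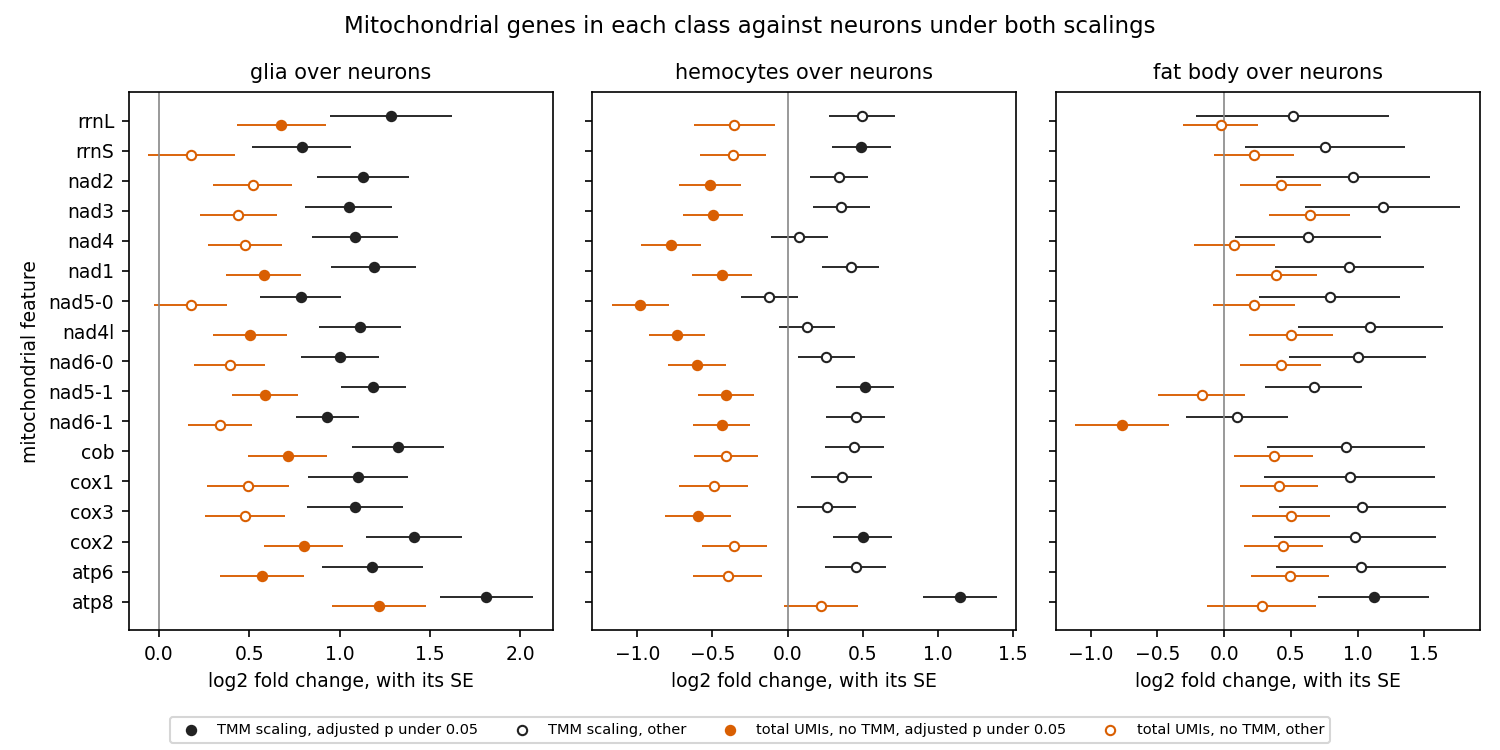
Log2 fold change with its standard error for the 17 mitochondrial features in glia, hemocytes and fat body over neurons, with TMM scaling in black and with scaling to total UMIs in orange, filled where the edgeR adjusted p was under 0.05. In glia all points lie right of 0 under both scalings, and in hemocytes 16 of 17 lie right of 0 with TMM and 1 of 17 without it.

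Hemocytes, the blood cells of the spider, had the lowest mitochondrial share. Their 1346 cells had 17.7%, 19.1% and 8.76% in F1, F2 and F3 and 17.4% and 24.8% in M1 and M2. They lay below neurons of their library in 4 of 5 libraries, with a mean difference of -5.53 ± 5.70 points (SD, n = 5 libraries; two-sided exact permutation test by flipping signs, p = 0.125, the smallest possible being 0.0625), and 0.230 points above them in F1, which held 45 hemocytes. By depth, hemocytes minus neurons averaged -7.74 points at 500 to under 1000 UMIs, -7.81 points at 1000 to under 2000, -7.56 points at 2000 to under 5000 and -6.64 points at 5000 to under 10000. They lay below neurons in all libraries compared at these depths except F1 at 1000 to under 2000 UMIs, with 26.01% against 23.6%, and M1 at 5000 to under 10000 UMIs, with 20.5% against 19.99%. The median hemocyte held 0.390 to 0.642 times the mitochondrial UMIs of the median neuron and 0.742 to 1.19 times its nuclear UMIs. All 3 *Hml* markers had at least 3 UMIs in hemocytes, at a sum of 932 to 2672 CPM of nuclear UMIs, against 13.9 to 23.2 CPM in neurons. Neuronal markers summed to 1384 to 3236 CPM in hemocytes, above the *Hml* sum on average, against 10493 to 17120 CPM in neurons, and glia markers to 127 to 363 CPM in hemocytes, against 21.6 to 71.0 CPM in neurons. The part of other cells' RNA in the hemocyte values was not tested.

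The direction of single mitochondrial genes in hemocytes depended on the scaling. With TMM 4 of 17 features were called higher than in neurons, atp8, nad5-1, cox2 and rrnS, against 18.5% of all 10680 genes tested, and none lower. Without TMM 10 were called lower and none higher, while 64.6% of all genes were called lower and 9.95% higher, and the median of all genes moved by -0.93 on the log2 scale. cox2 thus had a log2 fold change of 0.50 with TMM (SE 0.20, edgeR adjusted p = 0.043) and of -0.35 without it (adjusted p = 0.14). In CPM of all UMIs, cox2 had 8347, 8158 and 4453 in hemocytes of F1, F2 and F3 and 8177 and 10731 in those of M1 and M2, against 8065, 14360, 7505, 8620 and 12058 in neurons, lower in 4 of 5 libraries. In these units 8 of 17 features were lower in hemocytes in 5 of 5 libraries, and 60.4% of all genes were. No direction is therefore given for the single genes. The mix within the pool does not depend on the scaling. nad4, nad4l, nad2, cox3 and nad5-0 took a lower share of mitochondrial UMIs in hemocytes than in neurons in 5 of 5 libraries, nad5-0 with 0.654% against 0.957%, whereas rrnL, cox2 and atp8 took a higher one.

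Fat body cells, the spider's store of lipid and a seat of metabolism, were few and uneven. Their 312 cells had a mitochondrial share of 41.2%, 30.3% and 15.1% in F1, F2 and F3 and of 18.7% and 31.6% in M1 and M2. They lay above neurons in 2 of 5 libraries, with a mean difference of 4.29 ± 11.1 points (SD, n = 5 libraries; two-sided exact permutation test by flipping signs, p = 0.75). F1 held 6 of these cells, and without it the difference was -0.551 ± 2.75 points. edgeR called 1 of 17 features, atp8, higher, against 13.5% of all 10184 genes tested, on 28 UMIs in fat body, and none lower. All 17 had log2 fold changes above 0, with a median of 0.94, against -0.43 over all genes. Without TMM 14 of 17 were above 0, with a median of 0.39. In CPM of all UMIs 6 of 17 were higher in fat body in 5 of 5 libraries, and 3.62% of all genes were. DESeq2 called 11 of 17 higher, beside 8.5% of all genes, and without TMM 1 was called lower, nad6-1, beside 58.9% of all genes. All 6 fat body markers had at least 3 UMIs, at a sum of 7153 to 13663 CPM of nuclear UMIs, against 335 to 473 CPM in neurons. Neuronal markers summed to 707 to 4133 CPM and glia markers to 0 to 102 CPM in fat body, and the part of other cells' RNA was not tested here either.

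The mix of genes in the fat body pool also differed in value from that of neurons. rrnL took 64.3%, 45.0% and 37.5% of mitochondrial UMIs in F1, F2 and F3 and 49.2% and 50.03% in M1 and M2, against 63.9%, 57.9%, 49.6%, 56.8% and 56.9% in neurons, lower in 4 of 5 libraries. cox1, cox2, atp6 and nad2 took a higher share than in neurons in 5 of 5 libraries, atp6 with 9.71 ± 2.57% against 7.90 ± 1.62% (SD, n = 5 libraries each). The share of cox2 was above that of neurons in 5 of 5 libraries in glia and hemocytes too.

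Of 28 nuclear subunits of the respiratory chain, complexes I to V, none was called higher by edgeR than in neurons in glia, hemocytes or fat body. Of the 28, 23 were taken from a table of cluster markers made on these same libraries, so the list is not independent of differences between clusters. In glia 2 of 28 were called lower than in neurons and none higher, against 10.7% of all genes called lower, with a list median of -0.10 on the log2 scale. The called genes were *ND-B16.6*, an accessory subunit of complex I, at -0.87 (SE 0.23, edgeR adjusted p = 0.0097), and *SdhD*, a membrane anchor of complex II, at -0.61 (SE 0.19, adjusted p = 0.028). Without the library block 0 were called.

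In hemocytes 11 of 28 were called lower and none higher, against 20.9% of all genes called lower, with a list median of -0.36 beside -0.22 over all genes. They included 7 of the 12 complex I subunits, all 12 of which had fold changes below 0. *ND-B16.6* stood at -1.15 (SE 0.19, edgeR adjusted p = 3.9e-06), *ND-75*, an iron-sulfur subunit, at -0.95 (SE 0.20, adjusted p = 0.00015) and *ND-51L1*, related to the NADH binding subunit, at -1.005 (SE 0.22, adjusted p = 0.00028). None of the 6 nuclear complex V subunits was called. In fat body 1 was called lower, against 16% of all genes, *SdhA_S1*, the flavoprotein of complex II, at -0.91 (SE 0.37, edgeR adjusted p = 0.049), and DESeq2 called 12 of 28 lower, beside 22.4% of all genes. Without TMM 24, 28 and 20 of 28 were called lower in glia, hemocytes and fat body, where 47.2%, 64.6% and 58.9% of all genes were.

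A second list held 21 nuclear genes for mitochondrial ribosomes, translation, RNA and transcription, 4 of them from the same table of markers. In glia 1 was called lower, beside 10.7% of all genes, *mRpS23* of the small ribosomal subunit, at -0.56 (SE 0.18, edgeR adjusted p = 0.030). In hemocytes 3 of 21, all ribosomal proteins, were called higher, beside 18.5% of all genes, so that the count was not above the background. They were *mRpS14*, *mRpL49* and *mRpL15*, of which *mRpS14* stood at 0.80 (SE 0.17, adjusted p = 0.00026), although all 3 turned below 0 without TMM, and *mRpL46* and the elongation factor *mEFTu1* were called lower, beside 20.9% of all genes. In fat body 3 of 21 were called higher, beside 13.5% of all genes, a share near the background. They were *mtTFB1*, named for mitochondrial transcription factor B, at 1.23 (SE 0.39, edgeR adjusted p = 0.0091), *ICT1*, a peptidyl-tRNA hydrolase of the mitochondrial ribosome, at 1.19 (SE 0.38, adjusted p = 0.010) and *mRpL15* at 1.04 (SE 0.34, adjusted p = 0.012). All 3 fell short of the threshold in cells with at most 20000 UMIs and without TMM. Between the sexes 0 genes of either list were called by edgeR or by DESeq2, and 0 had an unadjusted p under 0.05 in either test.

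Clusters of cells ranged from 9.29% to 37.4% in mitochondrial share. Clusters were taken with at least 5 annotated cells and at least 10 cells in at least 3 libraries, 39 in all, of which 31 had 10 cells in every library. Cluster numbers are less sure than classes, since 74.7% of the labelled cells regained theirs when held out. The lowest share, 9.29%, was that of neuron cluster 26, with 65 cells and values in F3, M1 and M2 alone. Of its 15 annotated cells 0 regained their number. Among clusters with 10 cells in every library the lowest was 12.9%, in cluster 16. Glia clusters 21 and 28 came first, with 37.4 ± 8.82% and 36.3 ± 12.4% (SD, n = 5 libraries each). In cluster 28, rich in the transmitter transporters *Gat* and *Eaat2*, the share was 26.3%, 38.5% and 23.02% in F1, F2 and F3 and 39.6% and 54.3% in M1 and M2. The small glia cluster 41 had 18.4 ± 10.5% (n = 4 libraries), lower than the neurons on average. Among neurons, cluster 0 led with 34.2 ± 9.98%, followed by cluster 8 with 32.1 ± 8.91%, and cluster 32 had 13.8 ± 5.20%. Cluster 0 was shallow, with a median of 1295.5 UMIs against 2846 in cluster 8 and 5013 in cluster 32. Of its cells 36.6% were at or above 40%. Neighbours in this order differed by less than the spread between libraries, a spread that all clusters shared, since F2 and M2 were high in most of them. Hemocyte clusters ran from 12.9 ± 5.44% in cluster 16 to 25.4 ± 7.55% in cluster 27.

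Across neuron clusters the mitochondrial share went with the nuclear respiratory chain. Over the 25 neuron clusters found in all libraries, the summed level of the 28 nuclear subunits ran from 12888 to 35008 CPM of nuclear UMIs, and its Spearman correlation with the mitochondrial share was 0.90 (Pearson's r = 0.84). Within single libraries it was 0.849, 0.913 and 0.857 in F1, F2 and F3 and 0.858 and 0.790 in M1 and M2. Taken one by one, the 28 genes had a median correlation of 0.90 with the share, from 0.71 to 0.94, while 3361 nuclear genes with at least 50 CPM had a median of 0.42. These are descriptions over clusters that share libraries and depth. Of the 28 genes, 23 came from a table of cluster markers made on these libraries, unlike the 3361 genes set beside them. The part of that choice in the higher correlation was not tested. The median number of UMIs of a cluster had a correlation of -0.33 with its share. With glia, hemocytes and the rest added, 31 clusters in all, the correlation of the sum was 0.68. The glia clusters lay above the neurons there, cluster 28 with 36.3% of mitochondrial UMIs at 17011 CPM of the nuclear list and cluster 21 with 37.4% at 20475 CPM. Hemocyte clusters 27 and 25 had 25.4% at 13590 CPM and 20.5% at 14044 CPM, above neuron cluster 31 with 15.2% at 14579 CPM. Among neurons, cluster 0 stood off, with 34.2% at 24008 CPM, where cluster 10 had 22.3% at 23754 CPM.

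**Figure D4:**
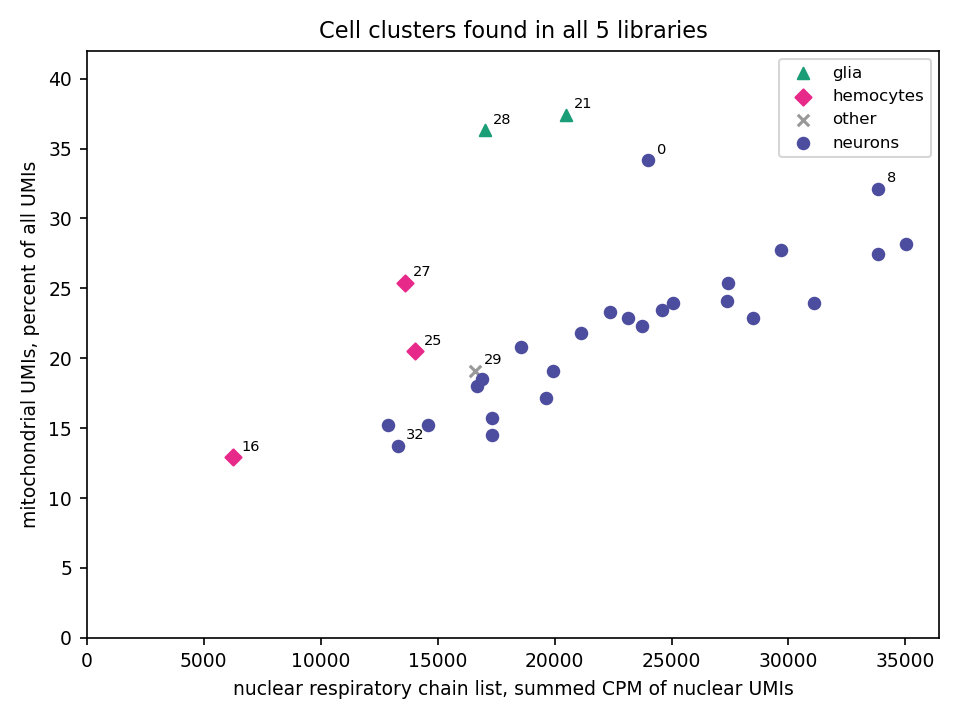
Mitochondrial UMIs as a percent of all UMIs against the summed CPM of nuclear UMIs of the 28 nuclear respiratory chain genes, with 1 point for each of the 31 clusters found in all 5 libraries, as means over libraries. The 25 neuron clusters run from 13.8% in cluster 32 to 34.2% in cluster 0, most of them along a rising band. Cluster 0, at 24008 CPM, lies above this band, as do glia clusters 21 and 28 and hemocyte clusters 25 and 27.

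The nuclear genes most like the mitochondrial share over these 31 clusters were chosen among 3271 with at least 50 CPM of nuclear UMIs. The leading pair, evm.TU.CTG-132.23 and evm.TU.CTG-1422.4, has no name in the tables used here and had Spearman correlations of 0.86 and 0.85. The best of the respiratory chain list, picked after its value was seen, was *ATPsynC*, the subunit of the proton-driven ring of complex V, with 0.81 and a level of 1461 to 5928 CPM.

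Cells at or above 40% of mitochondrial UMIs, a limit above which cells are often discarded, numbered 6831. They made up 8.32%, 30.9% and 5.41% of the cells of F1, F2 and F3 and 9.86% and 28.02% of those of M1 and M2. Pooled over libraries, glia were 11.1% of them, against 2.54% of the cells under 40%, and M2 held 438 of the 761 glia at or above 40%. Classes of cells above 40% were carried from cells that the study kept below that limit, so their accuracy was not measured. Both kinds of molecules differed between these cells and the rest. The median cell at or above 40% held 736 to 1284 mitochondrial UMIs depending on the library, against 426.5 to 648 in cells under 40%, and 622 to 1078 nuclear UMIs, against 1374 to 2602. The share itself chose these cells and is given without a test, and the part of cell quality in it was not tested.

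The make-up of the mitochondrial pool did not choose these cells directly, but it is not independent of the choice. Ribosomal RNA gave 61.3% of mitochondrial UMIs on average, so a cell rich in it is more easily at or above 40%. The test below cannot tell a difference in make-up from this way of choosing. Ribosomal RNA took 69.6%, 64.6% and 54.3% of mitochondrial UMIs in cells at or above 40% of F1, F2 and F3 and 63.3% and 61.7% in those of M1 and M2. In cells under 40% it took 68.3%, 62.1% and 52.9% in the female libraries and 60.7% and 59.9% in the male ones. The difference was positive in 5 of 5 libraries and averaged 1.93 ± 0.59 points (SD, n = 5 libraries; two-sided exact permutation test by flipping signs, p = 0.0625, the smallest that 5 libraries can give), and it was 2.07 points in neurons alone. It came from rrnL, which was 2.23 points higher, while rrnS was 0.303 points lower in cells at or above 40%. Of the messengers, nad5-0, nad4, nad1, cox3 and nad3 took a smaller share in cells at or above 40% in 5 of 5 libraries, as did nad4l and nad6-0, and cob, cox2, atp6 and nad2 had no common direction. nad5-0 differed most in proportion, with 0.790% against 0.984%. The comparison was not matched for depth. By library, 13.2% to 68.8% of cells with 500 to under 1000 UMIs were at or above 40%. Of cells with at least 10000 UMIs, 0.636% to 13.7% were. Ribosomal RNA took 63.3% of the pool on average in the shallower of these and 58.8% in the deeper, and the part of depth was not tested.

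In neurons at or above 40% the nuclear respiratory chain list was also higher per nuclear UMI. Against neurons under 40%, 17 of the 28 genes were higher in 5 of 5 libraries, beside 22.9% of 7555 nuclear genes with at least 1000 UMIs, and the list median was 0.33 on the log2 scale, with 1 CPM added to both sides, beside 0.089. The list for mitochondrial gene expression had a median of 0.069, and 5 of its 19 genes were higher in all libraries. Glia markers were also higher in neurons at or above 40%, as given above, and the part of other cells' RNA was not tested. The comparison pooled all neurons and was not matched for cluster. Neuron clusters differed in the part of their cells at or above 40%, with 36.6% in cluster 0, 30.9% in cluster 8 and 4.94% in cluster 6. Cluster 0 was the largest, with 7240 cells. The summed level of the 28 genes was 24008, 33842 and 16917 CPM of nuclear UMIs in clusters 0, 8 and 6. The cluster with the largest part at or above 40% thus did not have the highest sum. The part of cluster make-up in the higher list was not tested.

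The mitochondrial share went down with the depth of a cell. It averaged 33.6%, 28.3%, 24.9%, 21.4% and 16.1% over libraries in cells with 500 to under 1000, 1000 to under 2000, 2000 to under 5000, 5000 to under 10000 and at least 10000 UMIs. Cells of at least 10000 UMIs were between 11.8% in F3 and 23.5% in F2. The share of ribosomal RNA in the pool moved less, from 63.3% in the shallowest cells to 58.8% in the deepest.

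**Figure D5:**
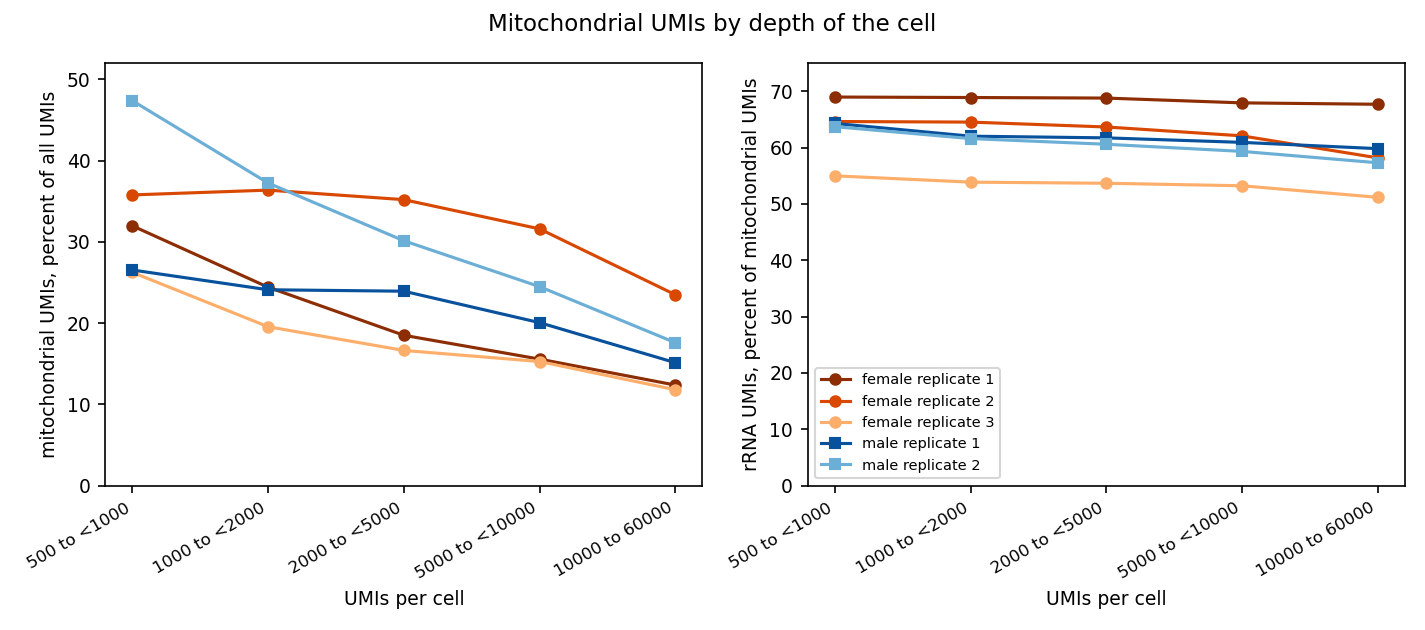
Mitochondrial UMIs as a percent of all UMIs (left) and ribosomal RNA as a percent of mitochondrial UMIs (right) in cells grouped by their number of UMIs, with 1 line for each library, circles for female and squares for male. The mean share goes down to 16.1% in the deepest cells, against 33.6% in the shallowest, and F1 keeps the highest and F3 the lowest part of ribosomal RNA.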

How the data were processed

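The authors aligned and counted with Cell Ranger and deposited raw UMI counts per gene and called barcode for each library, with no normalization. Cells were kept at 500 to 60000 UMIs and at least 200 genes. Doublets were neither called nor removed. Classes came from label spreading (20 neighbours, 40 principal components of nuclear genes corrected for library, alpha 0.9, 100 iterations) from 1998 annotated cells of female replicate 3, with the classes of the paper's clusters. Counts summed per library, or per library and class, were tested over all genes with edgeR 4.0.16 in R 4.3.3 (filterByExpr, TMM, glmQLFit, glmQLFTest, Benjamini-Hochberg at 0.05), with library as a block between classes. DESeq2 1.42.0 was an alternative. Standard errors are the size of the log2 fold change over the square root of F. Shares were compared with exact permutation tests over libraries. Python 3.11.15 was used for the rest. The edgeR step was tested on simulated data. Depth, from 11890699 to 35605489 UMIs per library, sets the counting error. For the mitochondrial shares of libraries and classes this error is smaller than the spread between libraries. That does not extend to features with few UMIs in a class, such as atp8 with 28 and nad6-1 with 41 in fat body. Named were the mitochondrial features with at least 100 UMIs, with full statistics for the 6 with most UMIs, up to 3 called genes of each nuclear list and direction, and the leading 2 of 3 nuclear genes most like the share over clusters. Members and lists were chosen with earlier results of these data known. Alternatives covered limits on cells, the class transfer, scaling, the filter on genes, blocks and each library left out. Leaving out shared barcodes, ranges of depth and neurons alone were added after seeing the data.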

Additional observations from a re-analysis of the deposited data

Results flagged for a closer look

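In 25 sets of 5 libraries, the library farthest from the others was compared with the range of the set, a rule that chance meets in about 1 set in 20. The mitochondrial share of fat body minus that of neurons was 23.7 points in F1, on 6 fat body cells, and between -3.57 and 3.03 points in the other libraries. nad5-0 gave 1.34% of mitochondrial UMIs in F3 and between 0.763% and 0.911% in the other libraries.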

How the results depend on the processing

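The difference between glia and neurons stayed at 10.2 to 13.4 points and that between hemocytes and neurons at -6.97 to -3.23 points when a library was left out, and no alternative tried turned either. The difference between females and males ran from -8.33 to 1.70 points over the libraries left out and was 0.791 points with the replicate block, for which only numbers 1 and 2 are shared. Deviations of same-numbered libraries had correlations of 0.016 and 0.14 over genes. With 2 male libraries the deviations of M1 and M2 mirror each other, so these values cannot tell whether the libraries are paired. The replicate block called 0 mitochondrial genes and 1 of the 28 nuclear respiratory genes. Fat body minus neurons ran from -0.551 points, without F1, to 6.26 points. The rRNA difference stayed at 1.75 to 2.09 points. Of the 17 features, those called in glia numbered 8 without TMM, 3 without the library block, 5 under 40% and 11 to 17 with a library left out, the lowest without M1, beside 9.26% to 14.3% of all genes called higher. In hemocytes 10 were called without TMM, 8 with DESeq2, 2 at 1000 UMIs or more, 1 without the filter on low counts, with 250 to 3000 genes or by the vote of 5 neighbours, 0 without the library block and 1 to 2 with a library left out. All genes called higher were 16.8% with DESeq2, 12.4% without the filter and 15.4% to 18.9% in the others, and 64.6% were lower without TMM. cox2, rrnS and nad5-1 stood at -0.35, -0.36 and -0.41 without TMM, and *mRpS14*, *mRpL49* and *mRpL15* at -0.081, -0.32 and -0.40. In fat body 11 were called with DESeq2, 5 by the vote, 4 without mitochondrial genes in the library sizes, 3 at 1000 UMIs or more, 0 without the filter, without the block, at 20000 UMIs or less and with 250 to 3000 genes, and 0 to 10 with a library left out, beside 8.5% to 15.04% of all genes called higher. The cause of these changes was not tested. Few cells limit the fat body values.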
